A study of Mus musculus with 4 samples.

Results

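The genes described here encode the E2F transcription factors and the retinoblastoma (RB) pocket proteins of EO771, a mouse mammary carcinoma line from the C57BL/6 strain. They were chosen by symbol in the table of raw counts: E2f1, E2f2, E2f3, E2f4, E2f5, E2f7, E2f8, Rb1, Rbl1 and Rbl2, which are 10 of 56350 genes. All 10 were found and all passed the filter on low counts. Total RNA was sequenced from 2 libraries labelled BML-210, a synthetic inhibitor of histone deacetylases given at 1.0 µM for 48 h, and from 2 control libraries. The controls are titled wild type and labelled untreated, while the protocol speaks of vehicle. No genetic change separates the groups, all libraries come from 1 line, and the labels do not say whether the 2 libraries of a group are separate cultures, so p-values measure a spread that may be technical. The columns of the table carry the letter V for the libraries labelled BML-210 and D for those labelled untreated. These letters do not settle which cells received the compound. V and D could also stand for vehicle and drug, and then every direction would be reversed. Every direction below rests on the labels.

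E2F factors bind the promoters of genes needed for DNA synthesis and division. The activators E2F1, E2F2 and E2F3 are held back by RB, and phosphorylation of RB by cyclin-dependent kinases (CDKs) releases them as cells enter S phase. E2F4 and E2F5 act mainly as repressors together with the pocket proteins p107 (Rbl1) and p130 (Rbl2), in quiescent cells as part of the DREAM complex with the MuvB core. The atypical members E2F7 and E2F8 bind DNA without the DP partners (Tfdp1 and Tfdp2) of the other E2Fs. They do not bind pocket proteins, and they repress E2F targets later in S phase. In breast carcinomas this pathway is often altered through loss of RB or gain of cyclin D and its kinases.

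Gene counts summed to between 13167893 and 16534667 per library. The lowest count of any member in a library was 289, where counting alone gives a standard deviation of 5.88%, and replicate libraries of the members differed by at most 2.27 times their counting error. Of the epithelial markers, Krt8 had 716 and 675 counts untreated and 374 and 463 with BML-210 (log2 fold change -0.59, adjusted p = 3.5e-09 by edgeR), and over all 4 libraries Krt18 had 0 to 2, Epcam 1 to 3 and Cdh1 11 to 16. The mesenchymal marker Vim had 22180 to 28283. Of the same list Erbb2 had 267 to 343 counts and Esr1 26 to 73. Epcam, Cdh1 and the listed keratins other than Krt8 were low. Of the list for mammary carcinoma and epithelium, which includes Vim, 5 of 11 genes were tested. It summed to 1767 to 1793 CPM (counts scaled to TMM library sizes) untreated and 1703 to 1735 CPM with BML-210. Vim alone held 1692 to 1721 CPM of this sum untreated and 1645 to 1679 CPM with BML-210. Summed markers of macrophages were 3.79 to 6.82 CPM in the untreated libraries and 2.57 to 3.41 CPM in those labelled BML-210, and those of lymphocytes (Nkg7 at 0) were 0.583 to 0.609 and 0.642 to 0.757 CPM. The macrophage marker Adgre1 had 33 and 13 counts untreated and 1 and 4 with BML-210 (log2 fold change -2.98, adjusted p = 3.83e-05 by edgeR). The macrophage markers Ptprc and Cd14, also tested, were not called (log2 fold change 0.02 and -0.44, adjusted p = 0.982 and 0.351 by edgeR). Endothelial markers summed to 8.45 to 9.13 and 9.42 to 10.4 CPM, and red blood cell markers (Hbb-bt and Alas2 at 0) to at most 0.583 CPM. Fibroblast markers summed to 230.1 to 238 and 197 to 204 CPM, with Lum and Thy1 at 0. Within this sum Pdgfra fell from 156 to 97.5 CPM and Pdgfrb rose from 54.9 to 81.3 CPM (adjusted p = 8.85e-20 and 5.52e-13 by edgeR). The part of these markers in the results was not tested, and in RNA from bulk culture fewer cells of a type and less RNA per cell cannot be told apart.

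Of the 10 genes, 5 rose with BML-210 and 2 fell. Rbl1 (p107) rose 1.52-fold, E2f8 rose 1.46-fold and E2f7 rose 1.42-fold. E2f4 and E2f3 rose 1.20-fold and 1.19-fold, Rbl2 (p130) fell 1.21-fold and Rb1 fell 1.09-fold. The activator genes E2f1 and E2f2 and the repressor gene E2f5 did not pass the test. Calls are at an adjusted p below 0.05 in edgeR's quasi-likelihood test over all 14455 tested genes, of which 46.4% were called in either direction, 22.9% as higher and 23.5% as lower. The groups did not overlap for 7 members, 5 higher and 2 lower. The share for all genes was 71.3% (35.2% higher and 36.1% lower), so the separation of the members is near the background. A larger absolute log2 fold change than that of Rbl1 was seen in 18.3% of all tested genes, of E2f8 in 21.1% and of E2f7 in 23.9%. For E2f2 the share was 84.5%. The median log2 fold change was 0.09 over the 10 members and -0.0025 over all tested genes.

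**Figure D1:**
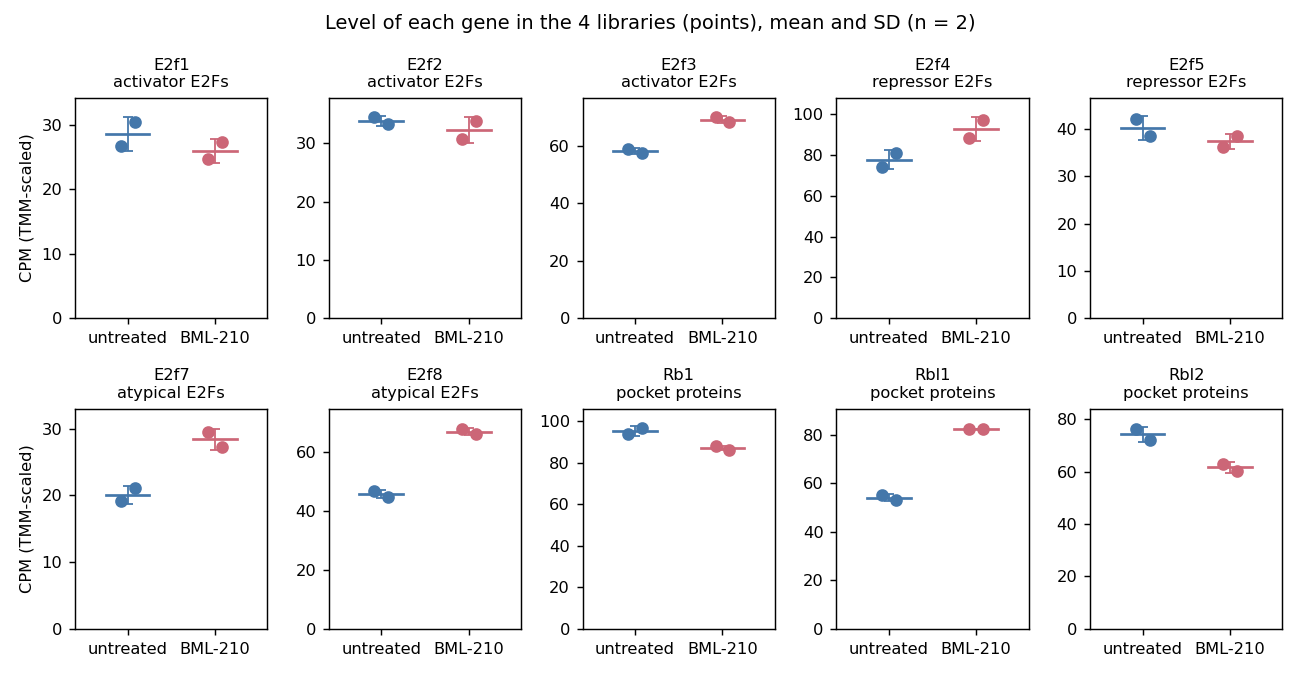
Level of each gene in CPM (vertical axes from 0, scaled by TMM) in the 2 untreated and the 2 BML-210 libraries; points are libraries, horizontal lines means and error bars SD (n = 2). The groups lie apart for E2f3, E2f4, E2f7, E2f8, Rb1, Rbl1 and Rbl2 and overlap for E2f1, E2f2 and E2f5.

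Start-site sequence was compared for the members whose RNA differed. RefSeq windows (GRCm38.p6) were matched by symbol for 7 of the 10 members, all but E2f4, E2f5 and Rb1. The 250 bases before the start were searched on both strands for TTTCCCGC, TTTCGCGC, TTTGCCGC and TTTGGCGC, forms of the E2F consensus that differ only in their middle letters, so that at most 1 of them starts at a given base of a strand, while matches on opposite strands can overlap. Below are the windows of the 5 called members with a start site at the 5′ end of the deposited gene, 5′ to 3′ on the gene's strand and ending at the last base before the start, with matches in capitals. They lie at chr2:157204535-157204784 (Rbl1, minus strand), chr10:110745189-110745438 (E2f7, plus strand), chr7:48881597-48881846 (E2f8, minus strand), chr13:29986064-29986313 (E2f3, minus strand) and chr8:91069807-91070056 (Rbl2, plus strand).
Rbl1: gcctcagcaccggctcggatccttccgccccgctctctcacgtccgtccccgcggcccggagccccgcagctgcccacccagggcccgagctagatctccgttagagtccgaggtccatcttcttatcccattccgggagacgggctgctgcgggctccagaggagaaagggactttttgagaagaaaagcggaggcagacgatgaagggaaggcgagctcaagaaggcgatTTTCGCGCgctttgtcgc
E2f7: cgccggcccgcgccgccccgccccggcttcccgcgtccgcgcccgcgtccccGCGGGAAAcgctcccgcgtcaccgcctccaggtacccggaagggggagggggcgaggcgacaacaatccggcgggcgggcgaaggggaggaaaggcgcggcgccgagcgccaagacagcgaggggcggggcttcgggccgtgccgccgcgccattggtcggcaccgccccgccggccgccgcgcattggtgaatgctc
E2f8: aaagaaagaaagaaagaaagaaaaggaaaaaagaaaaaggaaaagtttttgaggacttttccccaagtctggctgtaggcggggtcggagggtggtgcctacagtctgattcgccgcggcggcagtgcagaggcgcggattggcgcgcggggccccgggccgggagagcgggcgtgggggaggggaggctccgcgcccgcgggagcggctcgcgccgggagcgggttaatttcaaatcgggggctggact
E2f3: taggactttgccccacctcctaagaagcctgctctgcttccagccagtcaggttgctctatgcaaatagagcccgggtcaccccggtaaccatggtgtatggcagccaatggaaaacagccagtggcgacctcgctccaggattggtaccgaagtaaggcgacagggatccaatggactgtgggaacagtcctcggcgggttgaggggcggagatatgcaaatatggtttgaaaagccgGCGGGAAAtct
Rbl2: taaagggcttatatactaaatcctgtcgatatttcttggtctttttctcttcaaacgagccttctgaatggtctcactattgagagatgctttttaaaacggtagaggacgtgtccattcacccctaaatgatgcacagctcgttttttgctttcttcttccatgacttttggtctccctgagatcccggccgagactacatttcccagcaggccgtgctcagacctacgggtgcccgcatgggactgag
Rbl1 held TTTCGCGC on its own strand, 18 to 11 bases before the start. E2f7 held TTTCCCGC on the opposite strand, 198 to 191 bases before the start, and E2f3 held the same letters on the opposite strand, 11 to 4 bases before it. The windows of E2f8 and Rbl2 held none of these letters in this stretch. Of all 32851 windows in the table, 1.86% held at least 1 of the 4 forms, and of 12462 windows of tested genes 3.26%. A match is a string of letters and not a measured site. The start given for E2f1 lies 466 bases inside the deposited gene, another start of E2f3 lies 1672 bases inside, and the starts given for E2f2 lie -120 and 8388 bases from its 5′ end (a negative value lies before it). These windows held none of the 4 forms and are not shown.

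Among the activator genes, E2f3 (ENSMUSG00000016477.18, chromosome 13, 29906575 to 29986063, minus strand, mm10) was the one called. It had 58.8 and 57.3 CPM in the untreated libraries and 69.9 and 68.2 CPM in those labelled BML-210. Both BML-210 libraries were above both untreated ones, with a log2 fold change of 0.25 (SE 0.06, adjusted p = 0.00024 by edgeR). E2f3 gives rise to the isoforms E2F3a and E2F3b from different starts, and counts per gene cannot separate them.

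E2f1 (ENSMUSG00000027490.17, chromosome 2, 154559407 to 154569892, minus strand), the founding member of the family, had 26.7 and 30.4 CPM in the untreated libraries and 24.6 and 27.3 CPM in those labelled BML-210. The groups overlapped, and the log2 fold change was -0.13 (SE 0.09, adjusted p = 0.238 by edgeR), with an approximate 95% interval of -0.31 to 0.05. E2f2 (ENSMUSG00000018983.9, chromosome 4, 136172394 to 136196057, plus strand) had 34.5 and 33.3 CPM untreated and 30.7 and 33.8 CPM with BML-210. Its groups overlapped too, at a log2 fold change of -0.07 (SE 0.08, adjusted p = 0.497 by edgeR) and an interval of -0.23 to 0.09. Within libraries, whose ratios do not depend on scaling, E2f3 had 2.04 ± 0.230 counts per count of E2f1 in the untreated libraries and 2.67 ± 0.239 in those labelled BML-210 (SD, n = 2). Its ratio to E2f2 was 1.70 and 1.72 untreated and 2.27 and 2.02 with BML-210. Both ratios were higher in each BML-210 library than in each untreated one, so the proportions among the activator genes differed between the libraries of the 2 groups. With 2 libraries a side the smallest p of a two-sided exact permutation test is 0.333, and no ratio was tested.

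By a rule that took the genes nearest to E2f1 in the 4 libraries, as the distance between log2 CPM deviations from each gene's mean, Utp23 (distance 0.0256), Slc12a4 (0.0282) and Tbc1d10a (0.0369) came first. Slc12a4 had 98.2 and 110.3 CPM untreated and 91.6 and 100.4 CPM with BML-210, the same order of libraries as E2f1. The rule chose genes by their levels in these same libraries, so the shared order follows from the choice. With 4 libraries this is a loose measure of likeness.

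Of the repressor genes, E2f4 rose and E2f5 did not pass the test. E2f4 (ENSMUSG00000014859.9, chromosome 8, 105297663 to 105305370, plus strand), whose protein is a main E2F of resting cells, had 74.4 and 81.1 CPM untreated and 88.6 and 97.0 CPM with BML-210. The BML-210 libraries were both above the untreated ones, with a log2 fold change of 0.26 (SE 0.05, adjusted p = 4.68e-05 by edgeR). Its replicates differed by 2.08 and 2.27 times their counting error in the untreated and the BML-210 pair, the widest replicate gaps of the 10 genes. E2f5 (ENSMUSG00000027552.14, chromosome 3, 14578641 to 14606309, plus strand) had 42.0 and 38.5 CPM untreated and 36.3 and 38.5 CPM with BML-210. The groups overlapped at a log2 fold change of -0.11 (SE 0.07, adjusted p = 0.234 by edgeR), with an interval of -0.25 to 0.04. E2f4 had 1.77 and 2.11 counts per count of E2f5 in the untreated libraries and 2.45 and 2.52 in those labelled BML-210, so the balance between the repressor genes lay further towards E2f4 in both BML-210 libraries. E2f5 shares 26 exon bases with 1810022K09Rik on the opposite strand.

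The atypical repressor genes rose together. E2f8 (ENSMUSG00000046179.17, chromosome 7, 48866429 to 48881596, minus strand) had 46.7 and 44.7 CPM in the untreated libraries and 67.7 and 66.2 CPM in those labelled BML-210. The gap between the groups was 0.50 on the log2 scale, and the log2 fold change was 0.55 (SE 0.06, adjusted p = 2.23e-11 by edgeR). E2f7 (ENSMUSG00000020185.16, chromosome 10, 110745439 to 110787384, plus strand) had 19.1 and 21.1 CPM untreated and 29.5 and 27.3 CPM with BML-210. Its groups were separate as well, with a log2 fold change of 0.50 (SE 0.09, adjusted p = 1.05e-05 by edgeR). The ratio of E2f8 to E2f7 counts was 2.44 and 2.13 untreated and 2.30 and 2.43 with BML-210, so the pair kept an overlapping proportion while both rose. Against E2f1, E2f8 went from 1.75 and 1.47 to 2.75 and 2.43 counts per count, and E2f7 went from 0.717 and 0.691 to 1.20 and 1.00. E2f7 and E2f8 share 86 and 610 exon bases with genes on the opposite strand, 1700020G17Rik with 0 counts and Gm2788 with 145 counts over the 4 libraries, against 1375 for E2f7 and 3204 for E2f8.

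**Figure D2:**
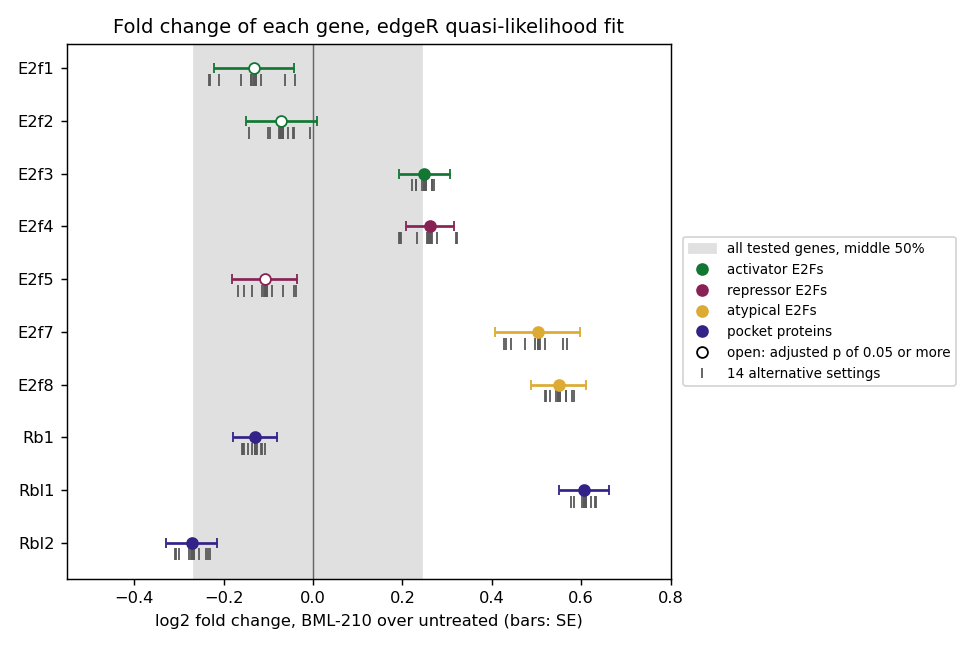
Log2 fold change of each gene, BML-210 over untreated (horizontal axis), from edgeR's quasi-likelihood fit, with SE bars; filled points passed an adjusted p of 0.05, ticks are the values under 14 alternative settings, and the grey band spans the middle 50% of all tested genes (-0.27 to 0.24). E2f7, E2f8 and Rbl1 lie above the band under every setting drawn, E2f3 and E2f4 near its upper edge and Rbl2 near its lower edge.

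The pocket protein genes moved in opposite directions. Rbl1 (ENSMUSG00000027641.13, chromosome 2, 157145893 to 157204534, minus strand), which encodes p107 and is itself a known E2F target, had 55.1 and 53.2 CPM in the untreated libraries and 82.5 and 82.6 CPM in those labelled BML-210. The gap between the groups was 0.58 on the log2 scale, the widest of the 10 genes, and the log2 fold change was 0.61 (SE 0.06, adjusted p = 5.07e-14 by edgeR). Rbl2 (ENSMUSG00000031666.15, chromosome 8, 91070057 to 91123844, plus strand), whose protein p130 is the main pocket protein of quiescent cells, had 76.1 and 72.2 CPM untreated and 62.9 and 60.2 CPM with BML-210. Both BML-210 libraries were below both untreated ones, with a log2 fold change of -0.27 (SE 0.06, adjusted p = 5.74e-05 by edgeR). Rb1 (ENSMUSG00000022105.6, chromosome 14, 73183673 to 73325822, minus strand), the tumour suppressor itself, had 93.7 and 96.9 CPM untreated and 87.9 and 86.2 CPM with BML-210. The groups did not overlap, but the change was small, at a log2 fold change of -0.13 (SE 0.05, adjusted p = 0.0281 by edgeR). The call of Rb1 was lost without untreated replicate 2 (adjusted p = 0.15), without BML-210 replicate 1 (0.0661), without BML-210 replicate 2 (0.16), with DESeq2 (0.216), with no filter on low counts (0.0662) and with library size only (0.0567), with adjusted p from 0.00663 to 0.216 over the 14 alternatives tried. The other 6 called members kept their calls under all 14.

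Read against each other within a library, Rbl1 had 0.724 and 0.738 counts per count of Rbl2 in the untreated libraries and 1.31 and 1.37 in those labelled BML-210. The order of these genes by raw counts was thus reversed between the groups. Per kilobase of exon, Rbl1 made up 26.4% and 25.7% of the pocket protein signal in the untreated libraries and 37.5% and 38.2% in the others. Rb1 went from 44.7% and 46.6% to 39.8% and 39.7%, and Rbl2 from 28.9% and 27.7% to 22.7% and 22.1%. The summed level of the 3 genes, in RPKM (CPM per kilobase of exon), was 34.8 and 34.5 untreated and 36.7 and 36.1 with BML-210, so the makeup of the family differed more than its total. Exons of Rbl2 share 693 bases with Aktip and 892 with Gm45464 on the opposite strand, and those of Rb1 share 488 with Rcbtb2 and 408 with Lpar6. Over the 4 libraries Aktip had 2065 counts against 3915 for Rbl2, and no source used here states how the counting treated strand, so reads of such pairs cannot be told apart. No exon of E2f1, E2f2, E2f3, E2f4 or Rbl1 overlaps one of another gene in the deposited table.

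Levels between genes were compared in RPKM, for which the exonic length counts every annotated isoform. In the untreated libraries E2f4 stood highest with 31.7 ± 1.93 RPKM (SD, n = 2), before E2f5 with 22.6 ± 1.40 and Rb1 with 15.8 ± 0.377. E2f3 (10.7 ± 0.201), Rbl2 (9.81 ± 0.364), E2f1 (9.05 ± 0.849), Rbl1 (9.04 ± 0.217), E2f8 (8.40 ± 0.254) and E2f2 (6.94 ± 0.177) followed in RPKM, and E2f7 was lowest with 2.23 ± 0.152. The libraries of E2f1 overlapped those of its neighbours Rbl2 and Rbl1 and also those of E2f8, while the other neighbours in this order were separate. With BML-210 the first 3 and the last 2 genes kept their places. Rbl1 (13.8 ± 0.0148 RPKM) moved from the 7th place to the 4th, before E2f3 (12.7 ± 0.215) and E2f8 (12.3 ± 0.198). Rbl2 (8.14 ± 0.257) moved from the 5th to the 8th, just behind E2f1 (8.22 ± 0.596), whose libraries it overlapped.

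**Figure D3:**
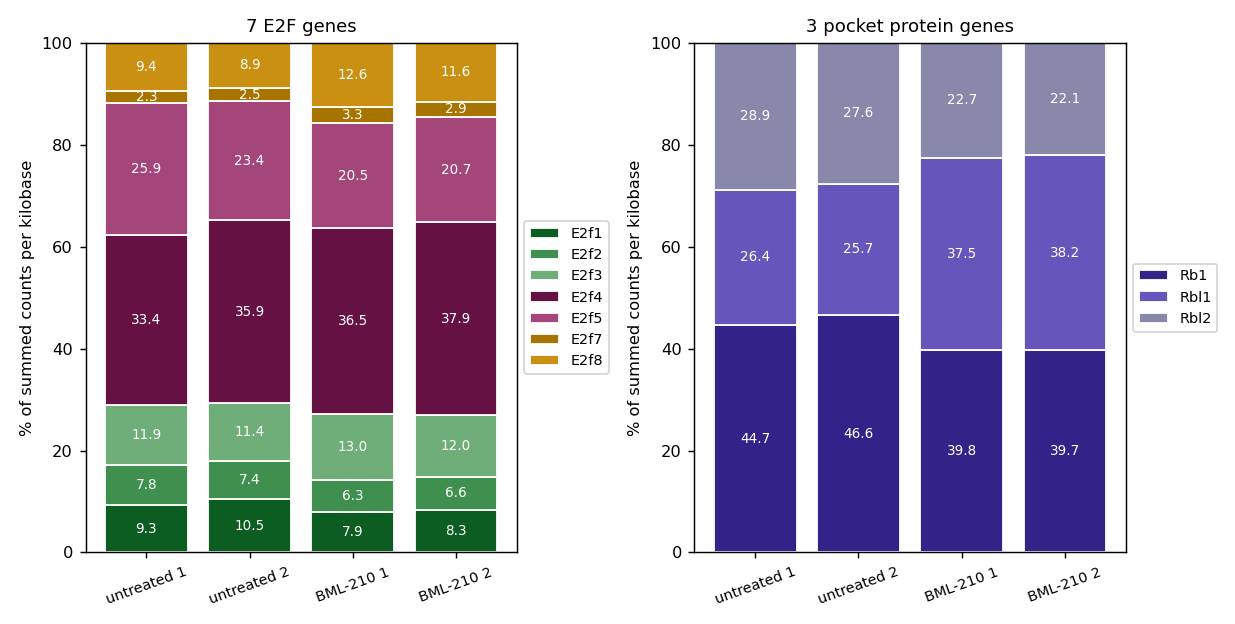
Share of each gene in the summed counts per kilobase of the 7 E2F genes (left) and of the 3 pocket protein genes (right), in % (vertical axis from 0 to 100), 1 bar per library. The 2 bars labelled BML-210 show larger E2f7, E2f8 and Rbl1 segments and smaller Rbl2 segments than the 2 untreated bars.

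Between activators and repressors the balance differed little. The summed level of the activator genes was 26.4 and 27.0 RPKM untreated and 27.0 and 28.1 RPKM with BML-210. That of E2f4 and E2f5 was 53.9 and 54.6 RPKM untreated and 56.5 and 61.2 RPKM with BML-210. The log2 ratio of activators to E2f4 and E2f5 was -1.03 and -1.02 in the untreated libraries and -1.07 and -1.12 in those labelled BML-210, a difference of -0.07 between group means. It was -0.04 without BML-210 replicate 2 and -0.10 without BML-210 replicate 1. The atypical genes moved further: their sum was 10.7 and 10.6 RPKM untreated and 15.7 and 15.2 RPKM with BML-210. The log2 ratio of activators to atypical repressors was 1.30 and 1.36 untreated and 0.78 and 0.89 with BML-210, a difference of -0.49 that lay between -0.55 and -0.44 when single libraries were left out. As shares of the 7 E2F genes, the activators held 29.1 ± 0.230% and 27.1 ± 0.190% in the 2 groups, E2f4 and E2f5 59.3 ± 0.00434% and 57.8 ± 1.12%, and the atypical genes 11.6 ± 0.225% and 15.2 ± 0.933% (SD, n = 2). These class values are descriptions without a test.

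The genes that work with these factors were read from lists of the pathway. Both dimer partners of the E2Fs rose. Tfdp1 had 91.9 and 98.2 CPM untreated and 146 and 149 CPM with BML-210, a log2 fold change of 0.64 (SE 0.05, adjusted p = 2.53e-18 by edgeR). Tfdp2 had 43.9 and 44.6 CPM untreated and 80.5 and 78.9 CPM with BML-210, at 0.85 (SE 0.06, adjusted p = 6.78e-19 by edgeR). E2f6, a repressor outside pocket protein control, was not called (log2 fold change -0.11, adjusted p = 0.146 by edgeR). The log2 fold changes of Tfdp1 and Tfdp2 were above those of all 10 members, by a margin over Rbl1 that was not tested.

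In the list of G1 cyclins and their kinases, 9 of 14 tested genes were higher and 1 was lower. The list also holds Ccna2 and the phosphatase gene Cdc25a, and its median log2 fold change was 0.21. The shares over all tested genes were 22.9% higher and 23.5% lower. Cdk4 and Cdk6, the kinases that act with cyclin D on RB, rose by 0.50 and 0.48 on the log2 scale (adjusted p = 4.58e-16 and 1.55e-20 by edgeR). The cyclin E genes, whose kinase partner is CDK2, are given side by side. Ccne2 had 29.6 CPM in both untreated libraries and 57.1 and 52.4 CPM with BML-210, a log2 fold change of 0.89 (SE 0.07, adjusted p = 3.03e-16 by edgeR). Ccne1 had 14.2 and 17.6 CPM untreated and 17.1 and 14.4 CPM with BML-210, with overlapping groups and an interval of -0.24 to 0.23 for its log2 fold change. It is named after its values were seen, and the difference between the cyclin E genes was not tested. Ccna2, the cyclin of S phase and G2, rose by 1.11, and Mnat1, a subunit of the CDK-activating kinase, fell by 0.23 (adjusted p = 0.00561 by edgeR). Mnat1 lost its call when untreated replicate 2 or BML-210 replicate 2 was left out (adjusted p = 0.112 and 0.1 by edgeR).

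Among 7 genes of CDK inhibitors, 5 were tested, 1 was higher and 1 lower, a share near the 22.9% higher and 23.5% lower of all tested genes. Cdkn1a (p21) had 258 and 256 CPM untreated and 202 and 211 CPM with BML-210, a log2 fold change of -0.32 (SE 0.04, adjusted p = 4.97e-11 by edgeR). Cdkn1b (p27) had 121 CPM in both untreated libraries and 142 and 140 CPM with BML-210, at 0.22 (SE 0.04, adjusted p = 1.59e-05 by edgeR). Cdkn1c (0.41, adjusted p = 0.177 by edgeR) and Cdkn2d (-0.16, adjusted p = 0.442 by edgeR) did not pass. Cdkn2a, which encodes the CDK4 and CDK6 inhibitor p16 and the protein p19ARF, had 0 to 1 counts in each library, and its neighbour Cdkn2b had none in any of the 4. A count of 3 corresponds to 0.183 to 0.227 CPM in single libraries, for counting error only. These low genes are named after their values were seen.

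Of 8 genes of the MuvB core and of the factors it works with, 6 were higher (median 0.40), beside 22.9% of all tested genes. Mybl2, which replaces the pocket proteins on MuvB in S phase, had 27.1 and 24.1 CPM untreated and 43.1 and 43.2 CPM with BML-210 (log2 fold change 0.75, adjusted p = 5.46e-12 by edgeR). In log2 fold change Foxm1 (0.76), the core subunit gene Lin9 (0.77) and the histone-binding subunit gene Rbbp4 (0.28) rose as well. The core genes Lin37 and Lin52 were not called, at -0.21 and 0.14, and are named after their values were seen.

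Downstream, 38 of 44 G1/S genes known as E2F targets were higher and 1 was lower, with a median log2 fold change of 0.64. Of all tested genes 22.9% were higher, but the lists here were chosen with earlier results of these data known. Ccne1, Ccne2 and Cdc25a are also counted among the G1 cyclins and kinases. The smallest adjusted p in the list were those of Pole, a DNA polymerase subunit gene (log2 fold change 1.31), of Mcm3 (0.91) and Mcm2 (0.90) of the replicative helicase, and of Rrm1 (0.75), which serves nucleotide synthesis, and the mismatch repair gene Msh6 fell by 0.16 (adjusted p = 0.0148 by edgeR). Msh6 lost its call when untreated replicate 2 or BML-210 replicate 2 was left out (adjusted p = 0.289 and 0.402 by edgeR). Of 30 G2/M genes under MuvB complexes, 27 were tested and all 27 were higher (median 0.58), among them Ccnb1 (0.83), Top2a (0.71), Tpx2 (0.67) and Anln (0.50). Beside these medians the rises of E2f7, E2f8 and Rbl1 lay at 0.50 to 0.61, and E2f1 and E2f2 were not called.

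Of 14 genes for corepressors and chromatin proteins that bind RB, 6 were higher and 2 lower (median 0.05), beside 22.9% and 23.5% of all tested genes. In log2 fold change the heterochromatin protein gene Cbx5 (0.49), the DNA end resection gene Rbbp8 (0.70), the DNA methyltransferase gene Dnmt1 (0.42) and Rbbp7 (0.30) rose. Hdac1 fell by 0.17 (adjusted p = 0.00851 by edgeR) and Smarca2 by 1.15 (adjusted p = 0.00251 by edgeR), the latter from 2.91 to 1.32 CPM. Smarca2 lost its call without untreated replicate 1 (adjusted p = 0.116 by edgeR), and Hdac1 when untreated replicate 2 or BML-210 replicate 1 was left out (0.0805 and 0.151). Among 10 tested genes for the turnover of E2F and RB regulators, 4 were higher and 1 lower (median 0.02), beside the same shares of all genes. In both lists the share called higher lay above that of all genes and the share called lower lay below it. These differences were not tested. On the same scale the ubiquitin ligase scaffold gene Cul1 (0.81), the APC/C inhibitor gene Fbxo5 (0.74), Cks1b (0.66) and the ubiquitin ligase gene Mdm2 (0.22) rose, and Ambra1, which directs cyclin D to degradation, fell by 0.18 (adjusted p = 0.00673 by edgeR; 0.206 without BML-210 replicate 1). Skp2 had 4 to 13 counts in a library and was not tested. Some of the genes named from these lists share exon bases with a well-counted gene on the opposite strand. These are Cdk4 (641 bases with Tspan31, 6236 counts against 8656), Ccne2 (609 with Ints8, 2891 against 2381), Ccna2 (510 with Exosc9, 3983 against 11763), Rbbp7 (174 with Txlng, 1260 against 4419) and Msh6 (34 with Fbxo11, 7949 against 4801).

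**Figure D4:**
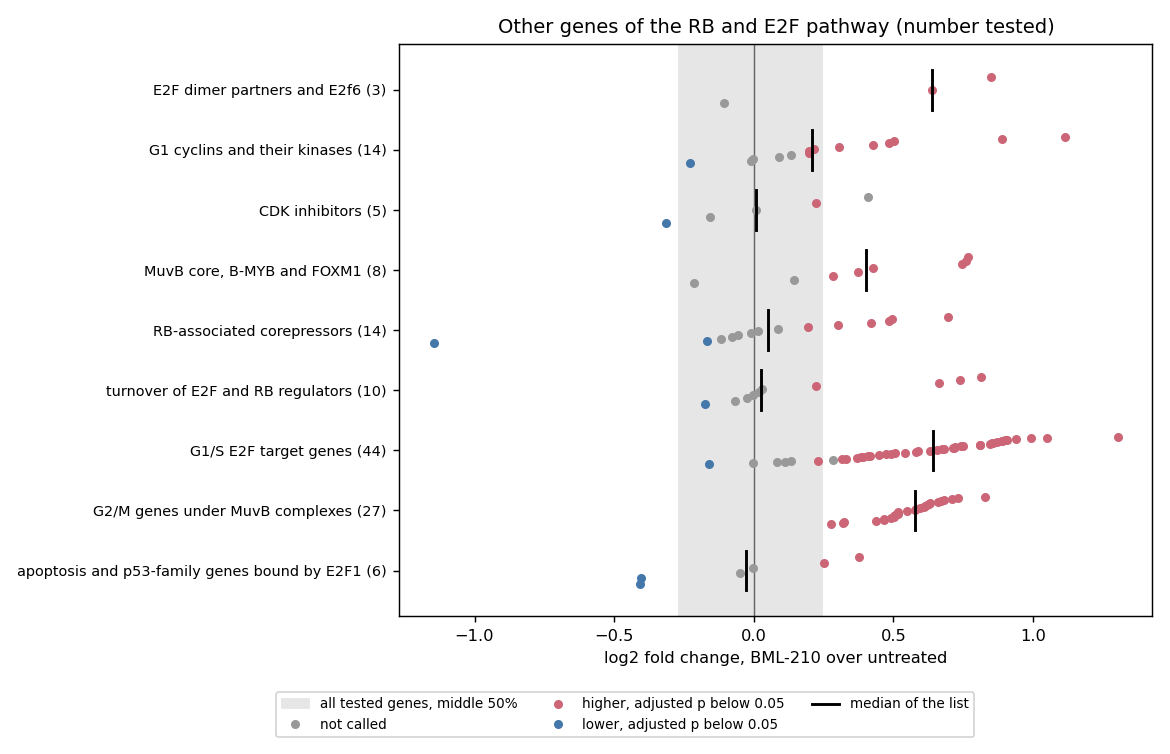
Log2 fold change, BML-210 over untreated (horizontal axis), of the tested genes in each list of the pathway (number tested in brackets); red points were higher and blue points lower at an adjusted p below 0.05, black bars are list medians and the grey band spans the middle 50% of all tested genes. The G1/S and G2/M lists have medians of 0.64 and 0.58, to the right of the band. The medians of the G1 cyclin and kinase, CDK inhibitor, corepressor, turnover and apoptosis lists lie inside it.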

How the data were processed

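Total RNA of 4 EO771 libraries was analysed, 2 labelled untreated and 2 labelled BML-210. The authors deposited raw counts per gene with exon coordinates and an exonic length, per the file headers. The submitters' processing notes name bcl2fastq, STAR 2.5, featureCounts of Subread 1.5.1, edgeR 3.20.8 and build mm10, and no source used here gives the settings for strand and shared reads or the annotation release. Counts were fitted in R 4.3.3 with edgeR 4.0.16: filterByExpr (14455 of 56350 genes), TMM, glmQLFit with robust estimation and glmQLFTest on the group alone, with Benjamini-Hochberg adjustment over all tested genes. The SE is the log2 fold change over the square root of F, and intervals are normal approximations from it. CPM are counts scaled to TMM library sizes, and RPKM are CPM per kilobase of exonic length. The members and lists were chosen with earlier results of these data known. Named are all members, up to 4 genes per list with the smallest adjusted p, and up to 2 called against their list. The 3 genes nearest to E2f1 with a mean of at least 5 CPM are named too. Other pathway genes are marked where named, apart from Cdc25a, Skp2, Kif11, Nek2 and Plk4. Skp2, Kif11, Nek2 and Plk4 were named for their low counts after these were seen. Replicate libraries were kept apart, since their counts differed beyond sampling noise (a chi-square statistic of 2.70 and 1.76 per degree of freedom). The fit was tested on simulated data in which few genes, drawn at random from all levels, were changed. There it missed most of the smallest changes, of a size near those of E2f3, E2f4 and Rbl2. It also made false calls at a rate above the nominal one. Far more genes were called in the real data, which eases the adjusted threshold, so the simulation does not measure how well changes of the members are found. Alternatives were other scaling, filters, DESeq2 1.42.0, limma-voom (limma 3.58.1), the likelihood ratio test, a replicate block, each library left out and, added after the data were seen, a fit without the genes that take more than 1% of any library.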

Additional observations from a re-analysis of the deposited data

How the results depend on the processing

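None of the 53 genes named by the rule changed direction under the 14 alternatives, which were not run gene by gene for those named after their values were seen (Ccne1, Lin37 and Lin52 among them), and E2f3, E2f4, E2f7, E2f8, Rbl1 and Rbl2 kept their calls. DESeq2 called 2205 genes higher and 2130 lower, against 3312 and 3402 in edgeR's quasi-likelihood test. Members called higher numbered 5 throughout, and those called lower fell to 1 with DESeq2, with no filter on low counts and with library size only, and were 1 to 2 when single libraries were left out. DESeq2 also left the lower calls at 0 for the G1 cyclins, the corepressors, the turnover list and the G1/S targets, and gave 1 higher and 1 lower apoptosis gene. Without genes of over 1% of a library's counts, 1 corepressor gene was lower. With single libraries left out, lower calls ran from 0 to 1 for the G1 cyclins, the turnover list and the G1/S targets and from 1 to 2 for the corepressors, and apoptosis genes from 1 to 2 in each direction. In every case the cause was not tested. With the replicate number as a block, 3385 genes were higher and 3462 lower, with 5 and 2 of the members, so the block ended no call among the members. The replicate differences of the 2 groups had a correlation of 0.0163 across genes. Counting noise of low genes can hide a shared deviation in this value, so it does not show whether same-numbered libraries were paired. Scaling moved the median log2 fold change of all genes to between -0.03 and 0.01. With 2 libraries a group, the approximate intervals of E2f1, E2f2 and E2f5 still allow changes of 0.31, 0.23 and 0.25 downwards on the log2 scale.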

Other observations

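Of 10 apoptosis genes known as E2F1 targets, 6 were tested, 2 were higher and 2 lower (median log2 fold change -0.03). Over all tested genes 22.9% were higher and 23.5% lower, so the count says nothing particular about the list. The apoptosome gene Apaf1 had 70.7 and 69.9 CPM untreated and 52.8 and 53.6 CPM with BML-210, a log2 fold change of -0.40 (SE 0.06, adjusted p = 3.59e-08 by edgeR), and the BH3-only gene Pmaip1 fell by 0.41 (adjusted p = 0.00372 by edgeR). The BH3-only gene Bbc3 rose by 0.38 (adjusted p = 0.000969 by edgeR) and Trp53inp1 by 0.25 (adjusted p = 0.00315 by edgeR). Pmaip1 and Trp53inp1 each lost the call with DESeq2 and without untreated replicate 2 (adjusted p = 0.0589 and 0.122 by edgeR).

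At least 1 of the 4 E2F consensus forms was found before the start of 10 of 35 G1/S target genes with a RefSeq window (28.6%), 1 of 25 G2/M genes (4.0%) and 3 of 7 members. Among 9728 tested genes with a window the share was 3.96%. These are counts of letters, without a test, and they say nothing of binding. The 7 members include E2f1, whose only window lies before a start 466 bases inside the deposited gene.

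The untested G2/M genes Kif11, Nek2 and Plk4 each appear in 2 rows of the table with the same exonic length, 1 on a chromosome and 1 on another sequence of the assembly. Summed over both rows and 4 libraries, none of them had more than 3 counts. No source used here states how reads that match both rows were counted, so these counts do not show that the genes were not transcribed. No member of the E2F and pocket protein set appears in more than 1 row.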
